A study of Homo sapiens with 7 samples.

Results

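The genes described are 7 targets of the transcription factor p53: CDKN1A, MDM2, SESN1, BAX, FAS, TP53I3 and GDF15. They were chosen by name as well-known p53 targets, and all 7 were among the 21262 genes listed in every one of 3 single-cell RNA libraries, whose tables held 23503 (CHIR), 22469 (DMSO) and 26940 (day 11) genes. The libraries held cardiac cells differentiated from H1, a widely used line of human embryonic stem cells, and each group had 1 library. The first group was day 15 of differentiation with CHIR, as the small molecule CHIR99021 is usually called, which blocks the kinase GSK3 and so turns on canonical Wnt signalling. The second was day 15 with the vehicle DMSO, and the third was day 11, for which the labels gave no treatment. The dose and timing of CHIR were not given, live cells had been sorted as those that exclude the dye DAPI, and the protocol text of the day 11 library names day 15. The series is about how canonical Wnt activity steers heart muscle cells toward the atrioventricular canal type, and its 4 chromatin samples were not used here. With 1 library per group no difference below has a replicate check, and no test was possible.

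p53 is kept low by the ubiquitin ligase MDM2 and is stabilised by DNA damage and other stresses. It then binds response elements in target genes, including MDM2 itself, so that MDM2 both restrains p53 and is induced by it. Its other targets stop the cell cycle, repair DNA, adjust metabolism or promote cell death. MDM2, CDKN1A and GDF15 also respond to other inputs, so that a higher level of any of them is not specific to p53.

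The p53 response element is made of 2 decamers of a known consensus, which can be separated by a spacer. A search of RefSeq start-site windows (GRCh38.p14, 250 bases before to 50 bases after a start) was made for the 2 decamers side by side with at most 3 of 20 letters off. This element reads the same on both strands. Among the 14 windows of the 7 genes, a match lay in some windows of MDM2, FAS and SESN1 and in that of GDF15. No window of CDKN1A, BAX or TP53I3 held a match. Over all 35116 windows, 5.20% held a match with at most 3 letters off and 0.649% one with at most 2 off. These shares are per window, whereas MDM2, FAS and SESN1 had several windows each. A match is a description of letters, not a site of binding. The matches that lie before a start site are shown with their surroundings, as stretches of letters that come near the consensus. Capitals mark the matches, and all sequences run 5′ to 3′ on the strand of the gene.

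MDM2: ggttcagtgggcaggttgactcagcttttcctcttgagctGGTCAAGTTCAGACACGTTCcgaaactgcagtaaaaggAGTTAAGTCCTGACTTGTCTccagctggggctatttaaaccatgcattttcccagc

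FAS: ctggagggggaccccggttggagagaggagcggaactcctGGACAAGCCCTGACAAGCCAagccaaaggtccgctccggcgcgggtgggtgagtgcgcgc

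SESN1: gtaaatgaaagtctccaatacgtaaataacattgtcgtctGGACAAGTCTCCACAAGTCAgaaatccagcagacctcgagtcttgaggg

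The MDM2 stretch is chr12:68808883-68809016 on the plus strand, beside the start of transcripts from its second promoter. It held 2 matches, at chr12:68808923-68808942 with 2 letters off and at chr12:68808961-68808980 with 3 off, 18 bases apart. The FAS stretch is chr10:88991269-88991368 on the plus strand, and its match, 122 bases before a start, was 2 letters off. The SESN1 stretch is chr6:109008989-109009077 on the minus strand, and its match, 49 bases before a start inside the gene, was 3 letters off. The GDF15 match, also 3 letters off, lay 28 bases after the start. No match in these windows says only that the letters are not there, since elements further away or with a spacer were not searched for. In the same build CDKN1A spans chr6:36676463-36687332, MDM2 chr12:68808172-68850686, SESN1 chr6:108984309-109094846, BAX chr19:48954875-48961798, FAS chr10:88964050-89017059, TP53I3 chr2:24077433-24084834 and GDF15 chr19:18386158-18389176.

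The libraries counted unique molecular identifiers (UMIs), which mark single captured transcripts, at the transcripts' 3′ ends. A level is the summed UMIs of a gene per 1000000 UMIs of the same cells (CPM), not scaled for transcript length. Each level has an exact Poisson 95% interval. Such intervals, and those of ratios and shares below, cover counting error only. The library totals were 81076689 UMIs in 5607 CHIR cells, 65675862 in 4015 DMSO cells and 75906387 in 5683 day 11 cells. The share of UMIs from ribosomal protein genes was 33.2%, 25.2% and 15.4% in that order, and pairs of libraries shared between 3 and 6 cell barcodes.

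Cells were sorted into classes by summed marker UMIs. Muscle-like cells had at least 80 muscle marker UMIs per 10000 and few mesenchymal ones, and numbered 1503 with CHIR, 1956 with DMSO and 3694 at day 11. Mesenchymal-like cells numbered 3609, 1583 and 1216 in that order, endothelial-like cells 38, 19 and 53, and endoderm-like cells 9, 21 and 133. The muscle-like class was gated on the sum of its 10 muscle markers, all at 20 CPM or more in every library. These levels thus do not test the heart muscle label. Muscle-like cells were 26.8% of the CHIR library, 48.7% of the DMSO library and 65.0% of the day 11 library. For this reason levels are given by class. The summed mesenchymal markers in muscle-like cells were 492 CPM with CHIR, 347 CPM with DMSO and 508 CPM at day 11, and the part of such cross-class RNA in the results was not tested.

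**Figure D1:**
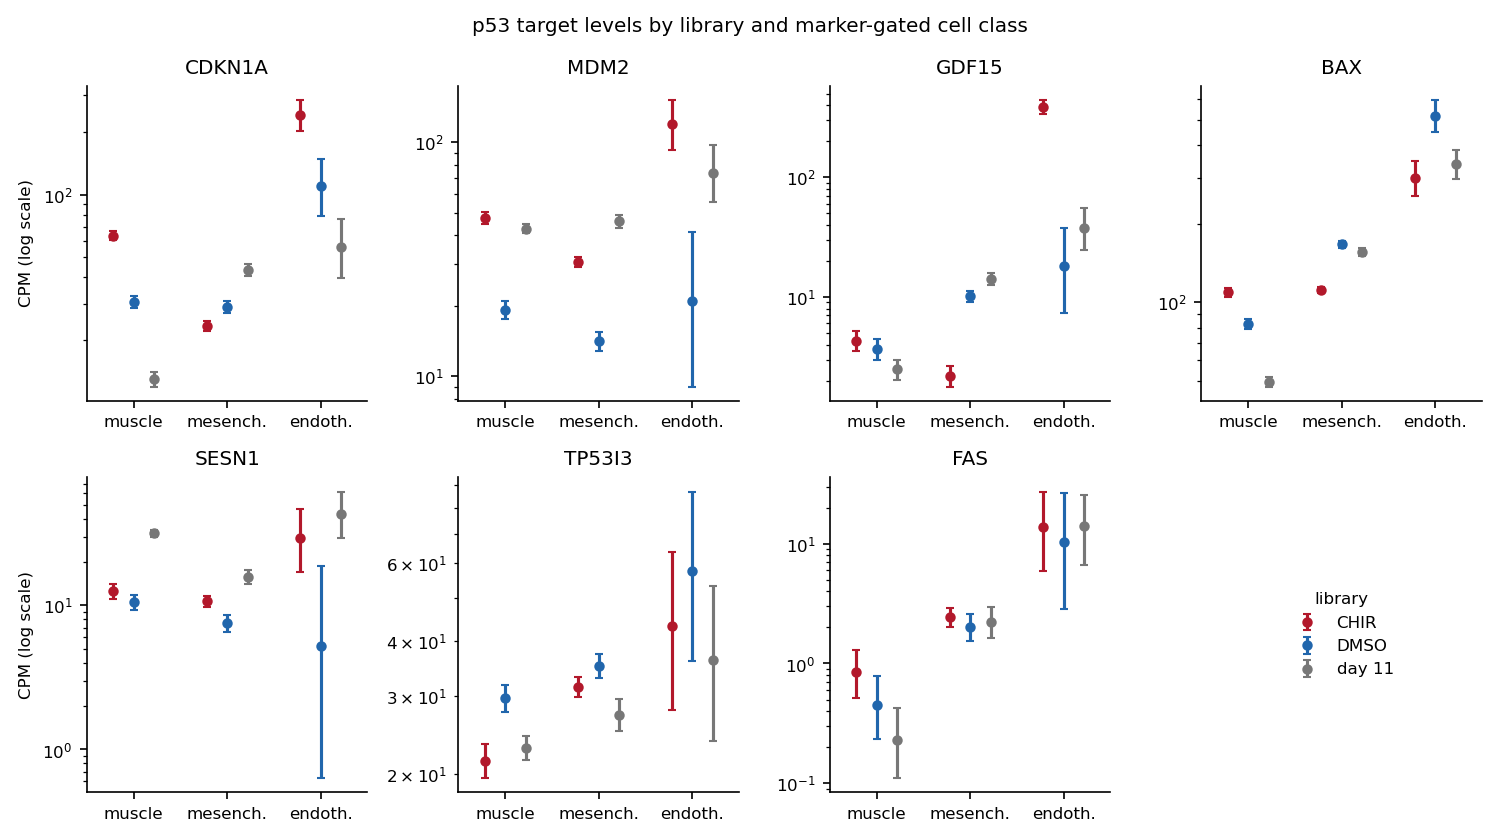
Levels of the 7 p53 targets (CPM, log axis, 1 panel per gene with its own scale) in muscle-like, mesenchymal-like and endothelial-like cells of the CHIR, DMSO and day 11 libraries. Points are summed levels and bars exact Poisson 95% intervals. In muscle-like cells CDKN1A was highest with CHIR and lowest at day 11, while MDM2 was lowest with DMSO. The endothelial-like cells held the highest level of the 3 classes in every library for every gene except SESN1 with DMSO. Several of these endothelial-like levels were not distinguishable from that of another class. MDM2 with DMSO had 8 UMIs and a ratio of 1.09 (0.469 to 2.17) to muscle-like cells.

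In muscle-like cells, CDKN1A and MDM2 were each more than 2-fold higher in the CHIR library than in the DMSO library, whereas the other 5 genes lay closer together or had few UMIs. A gene was counted as higher or lower where its CPM ratio reached 1.5 in either direction, with at least 20 UMIs over both libraries. By this rule 3 of the 7 genes were higher (CDKN1A, MDM2 and FAS) and 0 were lower. Over all 16093 genes measured in the same cells, 20.7% were higher and 25.7% were lower. The median log2 ratio was 0.40 for the 7 genes and -0.02 for all genes.

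MDM2, the ligase that restrains p53, had 47.2 CPM with CHIR (1119 UMIs), against 19.2 CPM with DMSO (508 UMIs) in muscle-like cells, a ratio of 2.46 (95% interval 2.22 to 2.74). At day 11 it had 42.7 CPM (1858 UMIs), and the DMSO library was the lowest of the 3. On the CPM scale the ratio of CHIR to day 11 was 1.10 (1.02 to 1.19), and that of DMSO to day 11 was 0.448, which is 2.23-fold lower (2.02 to 2.46). Which day 15 library was nearer to day 11 depended on the scaling. With trimmed mean (TMM) factors, the log2 ratio to day 11 was 0.80 with CHIR, past the threshold of 0.58, and -0.57 with DMSO, short of it.

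CDKN1A encodes p21, an inhibitor of cyclin-dependent kinases that halts the cell cycle. It had 63.5 CPM with CHIR (1507 UMIs), against 30.5 CPM with DMSO (808 UMIs), a ratio of 2.09 (1.91 to 2.27). At day 11 it had 13.0 CPM (567 UMIs), so the order of the libraries was CHIR, DMSO, day 11, with no overlap of the counting intervals. DMSO was 2.34-fold higher than day 11 (2.10 to 2.61) and CHIR 4.88-fold higher (4.42 to 5.38).

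SESN1 encodes a sestrin, a stress protein that limits mTORC1 signalling. It had 12.5 CPM with CHIR and 10.5 CPM with DMSO, a ratio of 1.19 (1.01 to 1.41), and 31.7 CPM at day 11. Day 11 was thus the highest library for SESN1 and the lowest for CDKN1A, and both day 15 libraries were lower than day 11 for SESN1, by 2.53-fold with CHIR (2.23 to 2.88) and by 3.02-fold with DMSO (2.65 to 3.45).

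Of the genes linked to cell death, BAX, the pore-forming effector of mitochondrial apoptosis, had the highest level of the 7 in muscle-like cells of every library. It had 109 CPM with CHIR, 82.6 CPM with DMSO and 49.6 CPM at day 11. The CHIR to DMSO ratio of 1.32 (1.2 to 1.4) was below the threshold, and both day 15 libraries were above day 11, by 2.20-fold with CHIR (2.08 to 2.33) and 1.67-fold with DMSO (1.57 to 1.77). Without mitochondrial and ribosomal protein genes in the total, the BAX log2 ratio of CHIR to DMSO was 0.60 and passed the threshold of 0.58, but that scaling moved the median of all genes to 0.18.

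TP53I3, also called PIG3, encodes an oxidoreductase linked to reactive oxygen species. It was the gene of this group that ran the other way in muscle-like cells, with 21.4 CPM with CHIR, against 29.7 CPM with DMSO and 22.9 CPM at day 11. CHIR was 1.39-fold lower than DMSO (1.24 to 1.55), which is short of the threshold. FAS, a death receptor of the cell surface, had only 20 UMIs with CHIR, 12 with DMSO and 10 at day 11. Its ratio of 1.86 counted as higher by the rule, but the interval of 0.868 to 4.18 spanned 1.

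GDF15, a secreted stress hormone of the TGF-beta superfamily, was low in muscle-like cells, with 4.3 CPM with CHIR (102 UMIs), 3.66 CPM with DMSO (97 UMIs) and 2.48 CPM at day 11 (108 UMIs). The CHIR to DMSO ratio was 1.18 (0.882 to 1.57), so that no difference was detectable at this depth. When the marker thresholds were set 2 times lower, its log2 ratio was 1.08, against 0.23 with the thresholds used.

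**Figure D2:**
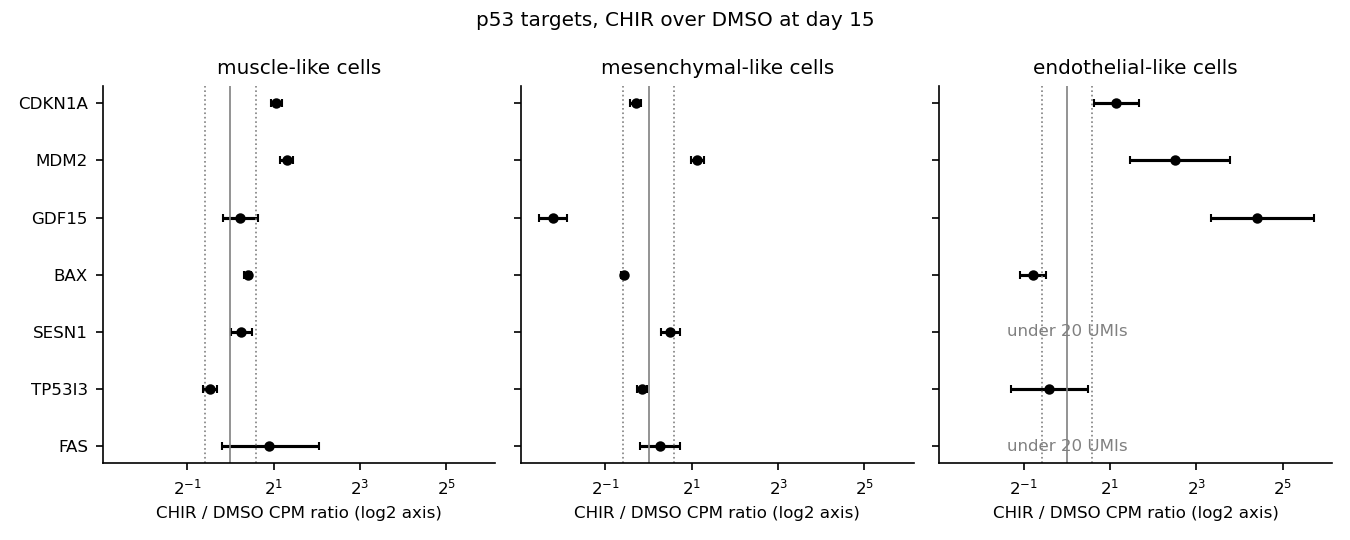
Ratio of CHIR to DMSO levels (log2 axis) for the 7 genes in muscle-like, mesenchymal-like and endothelial-like cells. Points are ratios of CPM and bars exact conditional binomial 95% intervals, dotted lines mark 1.5-fold in each direction, and genes with under 20 UMIs over both libraries are marked. MDM2 lies to the right of the dotted lines in all 3 classes, at 2.46, 2.18 and 5.70, whereas GDF15 lies at 1.18, 0.216 and 21.1.

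Against day 11, the 7 genes did not move as a block in muscle-like cells. In the CHIR library 4 were higher than at day 11 (CDKN1A, BAX, FAS and GDF15) and 1 was lower (SESN1), where 9.65% of 18223 genes were higher and 55.9% were lower. In the DMSO library 3 were higher (CDKN1A, BAX and FAS) and 2 were lower (MDM2 and SESN1), where 8.44% of 18234 genes were higher and 52.8% were lower. The FAS calls rested on few UMIs, 20 with CHIR, 12 with DMSO and 10 at day 11. Its ratio to day 11 was 3.67 (1.64 to 8.78) with CHIR and 1.97 (0.779 to 5.09) with DMSO, where the interval spanned 1. The median log2 ratio of all genes was -0.76 for CHIR and -0.66 for DMSO, and ribosomal protein genes took 30.7% of muscle-like UMIs with CHIR, 22% with DMSO and 12.5% at day 11. Both comparisons share the day 11 library and are not independent. With TMM factors, which bring the median of all genes to -0.08 for DMSO over day 11, CDKN1A was at a log2 ratio of 1.81, BAX at 1.33, MDM2 at -0.57 and SESN1 at -1.0, so that the sign of each stayed while MDM2 no longer reached the threshold. For CHIR over day 11 the TMM values were 2.94 for CDKN1A, 1.79 for BAX, 0.80 for MDM2, which then passed the threshold, and -0.68 for SESN1, with a median of -0.11 over all genes.

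In mesenchymal-like cells, MDM2 was higher with CHIR as in muscle-like cells, but CDKN1A was not. MDM2 had 30.8 CPM with CHIR (1483 UMIs), against 14.1 CPM with DMSO (424 UMIs), a ratio of 2.18 (1.96 to 2.44), and 45.8 CPM at day 11. CDKN1A had 23.4 CPM with CHIR, against 28.8 CPM with DMSO, a ratio of 0.814 (0.744 to 0.890), and 43.5 CPM at day 11. The order of the libraries for CDKN1A in mesenchymal-like cells was therefore the opposite of that in muscle-like cells.

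GDF15 was the gene of the 7 with the largest CHIR to DMSO difference in mesenchymal-like cells. It had 2.18 CPM with CHIR (105 UMIs), against 10.1 CPM with DMSO (304 UMIs), which is 4.64-fold lower (3.70 to 5.85), and 14.2 CPM at day 11. BAX had 111 CPM with CHIR and 167 CPM with DMSO, a ratio of 0.669 (0.643 to 0.695) that was just inside the 1.5-fold threshold. SESN1 had a ratio of 1.42 (1.21 to 1.67), FAS of 1.20 (0.872 to 1.66) and TP53I3 of 0.897 (0.828 to 0.971), and TP53I3 had a log2 ratio of 0.02 without mitochondrial and ribosomal protein genes in the total. In this class 1 of 7 genes was higher and 1 was lower, where 32.9% of 16699 genes were higher and 24.1% were lower. The median log2 ratio was -0.16 for the 7 genes and 0.15 for all genes. Smooth muscle markers summed to 523 CPM in these cells with CHIR, against 2559 CPM with DMSO, and cycling cells were 16.4% of them with CHIR and 10.0% with DMSO. The part of these differences in the results was not tested.

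The contrast between classes within a library also turned round for CDKN1A. Mesenchymal-like cells had a CDKN1A level 2.71-fold lower than muscle-like cells with CHIR, a ratio of 0.945 (0.857 to 1.04) with DMSO and a level 3.34-fold higher (3.0 to 3.72) at day 11. For BAX the same ratio was 1.02 with CHIR, 2.02 with DMSO and 3.15 at day 11. FAS was higher in mesenchymal-like than in muscle-like cells in each library, by 2.88-fold (1.78 to 4.89) with CHIR, 4.48-fold (2.39 to 9.14) with DMSO and 9.71-fold (4.82 to 21.6) at day 11. Of all genes, 23.5% with CHIR, 20.8% with DMSO and 19.6% at day 11 were at least 1.5-fold higher in mesenchymal-like cells. In the same order, 24.5%, 35.0% and 38.8% were lower.

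Endothelial-like cells were few but had the highest BAX, CDKN1A and FAS levels of the 3 classes in every library. BAX had 299 CPM with CHIR (173 UMIs), 517 CPM with DMSO (198 UMIs) and 338 CPM at day 11 (242 UMIs), which was 2.74-fold, 6.26-fold and 6.82-fold the muscle-like level of the same libraries. CDKN1A had 240 CPM with CHIR (139 UMIs), 110 CPM with DMSO (42 UMIs) and 55.9 CPM at day 11 (40 UMIs), between 3.6-fold and 4.29-fold the muscle-like level. The day 11 CDKN1A level was not distinguishable from that of mesenchymal-like cells, with a ratio of 1.28 (0.911 to 1.76). FAS had between 10.4 and 14 CPM from 4 to 10 UMIs a library. Of all genes, 26.75% with CHIR, 25.59% with DMSO and 23.97% at day 11 were at least 1.5-fold higher in endothelial-like than in muscle-like cells. In the same order, 28.94%, 34.5% and 35.17% were lower in endothelial-like cells. In these cells 7 or 8 of 8 endothelial markers were at 20 CPM or more in each library. The class was gated on these markers, so their levels do not test its name.

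Between the day 15 libraries, 3 of the 5 genes measured in endothelial-like cells were higher with CHIR (CDKN1A, MDM2 and GDF15) and 1 was lower (BAX), where 27.8% of 5165 genes were higher and 25.8% were lower. CDKN1A was 2.19-fold higher (1.54 to 3.17) and BAX 1.73-fold lower (1.40 to 2.14). MDM2 had 119 CPM with CHIR (69 UMIs), against 20.9 CPM with DMSO (8 UMIs), a ratio of 5.70 (2.74 to 13.7). Without the cell of each library with most MDM2 UMIs the ratio was 9.37 (3.48 to 35.5). That ratio rested on 4 DMSO UMIs, since the highest DMSO cell held 4 of the 8 and the second 3. GDF15 had 385 CPM with CHIR (223 UMIs), against 18.3 CPM with DMSO (7 UMIs), a ratio of 21.1 (10.0 to 53). Mesenchymal markers summed to 756 CPM in these cells with CHIR, against 227 CPM with DMSO, and their part was not tested.

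The GDF15 level of the CHIR endothelial-like cells rested largely on 2 cells, with 134 and 38 of the 223 UMIs. The first of them had 14743 UMIs in all, and GDF15 was its 11th most abundant gene. A GDF15 UMI was found in 20 of 38 endothelial-like CHIR cells, 6 of 19 with DMSO and 10 of 53 at day 11. Without the 2 highest cells of each library the level was 93.4 CPM with CHIR and 11.8 CPM with DMSO, a ratio of 7.90 (2.90 to 30.1), and without only the highest cell the ratio was 11.3 (4.66 to 35.6). The 38 cells held 40.7% of the 548 GDF15 UMIs of the CHIR library.

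**Figure D3:**
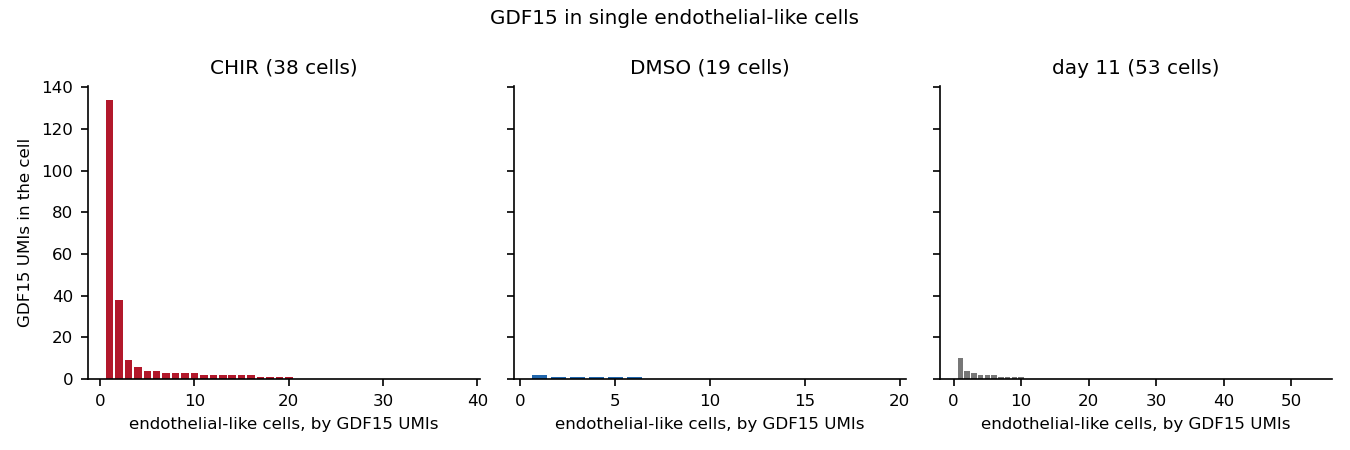
GDF15 UMIs in each endothelial-like cell (1 bar per cell, in order of its GDF15 UMIs) of the CHIR, DMSO and day 11 libraries. With CHIR the 2 highest cells hold 134 and 38 UMIs and the third 9, with DMSO the highest holds 2, and at day 11 the highest holds 10.

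Endoderm-like cells gave few UMIs at day 15. Of 3 genes measured, 1 was higher with CHIR (MDM2) and 0 were lower, where 20.3% of 3576 genes were higher and 33.9% were lower, and the interval of the MDM2 ratio of 2.03 (0.803 to 4.75) spanned 1. GDF15 was high in this class, with 149 CPM with CHIR (18 UMIs), 104 CPM with DMSO (51 UMIs) and 34.2 CPM at day 11 (76 UMIs), against 2.48 to 4.3 CPM in muscle-like cells. Among the 9 CHIR cells the highest and the second cell held 7 of the 18 GDF15 UMIs each. In the sum over all cells, which also reflects the class shares, 1 of 7 genes was higher with CHIR (MDM2, 36.8 CPM against 16.7 CPM with DMSO, 2.21-fold, 2.06 to 2.37) and 0 were lower, where 25.4% of 18785 genes were higher and 26.1% were lower. GDF15 over all cells had a ratio of 0.842, and of 0.676 without the highest cell of each library.

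The share of cells with a UMI showed how the levels were spread over muscle-like cells. Each cell was thinned to 5000 UMIs, and shallower cells were left out (19 with CHIR, 67 with DMSO and 141 at day 11). A CDKN1A UMI was then found in 19.9% of CHIR cells (296 of 1484, exact binomial interval 17.9% to 22.1%), 9.74% with DMSO (184 of 1889) and 4.17% at day 11 (148 of 3553). Without thinning the shares were 35.7%, 17.4% and 8.18%, at median depths of 14857, 13079 and 11583.5 UMIs per cell. TTR, a liver gene that muscle cells should lack, was found in 0.135% of thinned muscle-like CHIR cells, 0.476% with DMSO and 3.35% at day 11. Free RNA of a gene depends on how much of it the library holds, and TTR had 234 CPM over all day 11 cells and 6.83 CPM in the muscle-like ones, where CDKN1A had 31.4 CPM and 13.0 CPM. The TTR share is therefore not a floor for the 7 genes, and the part of free RNA in their shares was not tested.

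An MDM2 UMI was found in 19.9% of thinned muscle-like CHIR cells, 10.1% with DMSO and 18.2% at day 11, and without thinning in 46.8%, 21.9% and 36.7%. With CHIR the thinned shares of CDKN1A and MDM2 were thus equal, but 3 or more UMIs were found in 3.10% of cells for CDKN1A and in 0.337% for MDM2. The 5% of muscle-like cells with most UMIs of the gene held 41.1% of the CDKN1A UMIs with CHIR, 65.1% with DMSO and 79.4% at day 11, and 26.9%, 35.0% and 27.8% of the MDM2 UMIs. These shares also fall as a gene's level rises, so they are not a measure of spread alone. BAX was found in 38.3% of thinned CHIR cells, 28.9% with DMSO and 20.1% at day 11, and SESN1 in 6.74%, 5.24% and 14.6%. GDF15 was found in 1.55%, 0.953% and 1.10% and FAS in 0.404%, 0.106% and 0.113%.

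**Figure D4:**
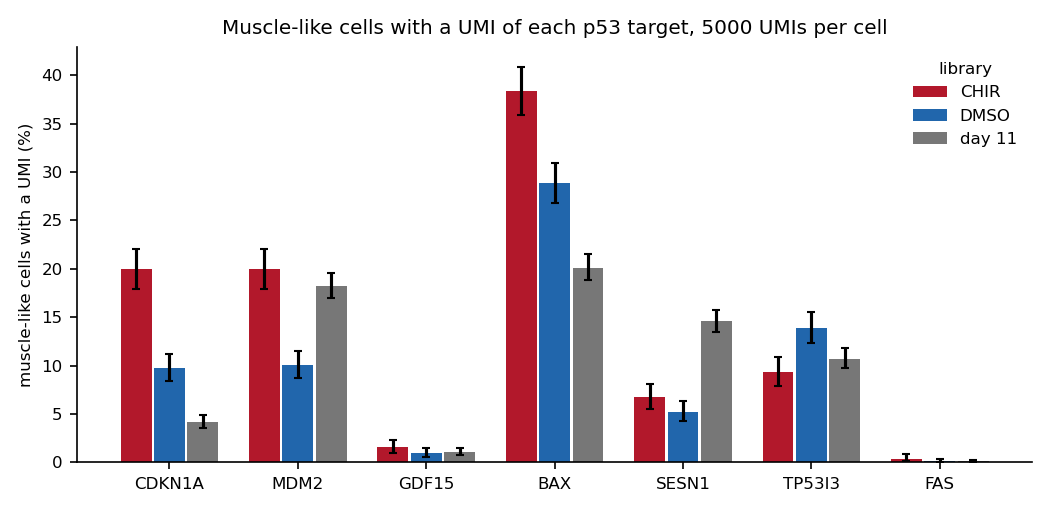
Share of muscle-like cells (%) with a UMI of each of the 7 genes after thinning to 5000 UMIs per cell, in the CHIR, DMSO and day 11 libraries. Bars start at 0 and error bars are exact binomial 95% intervals. CDKN1A is found in 19.9% of CHIR cells, 9.74% with DMSO and 4.17% at day 11, while MDM2 is found in 19.9%, 10.1% and 18.2%.

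Within each library, cells with more CDKN1A also had more of most other p53 targets. Thinned cells with at least 2 CDKN1A UMIs were compared with cells that had 0. In the muscle-like class there were 114 such CHIR cells (7.68%), 53 with DMSO (2.81%) and 33 at day 11 (0.929%). In the mesenchymal-like class there were 75 (2.08%), 33 (2.09%) and 47 (3.89%) in the same order. These are cells of 1 library each, so they describe that library and give no test. At a fixed cut, a group with a higher CDKN1A level holds more such cells by sampling alone. The ratios below are therefore not compared between libraries.

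MDM2 was higher in the cells with CDKN1A UMIs in every library and class. The ratio to cells with 0 was 2.38 (1.72 to 3.22) with CHIR, 3.84 (2.25 to 6.20) with DMSO and 4.70 (3.15 to 6.78) at day 11 among muscle-like cells. Among mesenchymal-like cells it was 2.16 (1.32 to 3.35), 5.59 (2.79 to 10.2) and 5.70 (4.08 to 7.83) in the same order. BAX was higher in every one as well, with ratios between 2.04 and 4.96.

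GDF15 had the largest ratios, between 11.1 and 42.4, although they rest on 6 to 35 UMIs in the cells with CDKN1A UMIs. SESN1 ratios lay between 1.14 and 10.3, and the lowest, in DMSO muscle-like cells, came from 3 UMIs in the cells with CDKN1A UMIs and had an interval that spanned 1 (0.230 to 3.43). TP53I3 did not follow. Its ratio was 3.88 (2.10 to 6.60) in day 11 muscle-like cells, and in the other 5 groups it lay between 0.767 and 1.63 with intervals that spanned 1. FAS had at most 2 UMIs in any group of cells with CDKN1A UMIs.

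Thinning to 3000 UMIs left between 17 and 61 cells with at least 2 CDKN1A UMIs in a group and moved several of these ratios. MDM2 ratios then lay between 2.58 and 5.92, and the one in DMSO muscle-like cells, 2.78, had an interval that spanned 1 (0.745 to 7.34). BAX ratios lay between 1.86 and 4.57, with no interval that spanned 1. The GDF15 ratio was 39.4 (14.6 to 117) in CHIR muscle-like cells and 5.27 (0.125 to 34.6) in DMSO muscle-like cells, the second from 1 UMI in the cells with CDKN1A UMIs. SESN1 had 0 UMIs in those cells among CHIR muscle-like (interval of the ratio 0 to 1.5) and DMSO mesenchymal-like cells (0 to 14.5), the group with its ratio of 10.3 at 5000 UMIs. TP53I3 had 0 UMIs in those cells among DMSO mesenchymal-like cells (0 to 2.20) and a ratio of 0.283 (0.00707 to 1.62) in CHIR muscle-like cells.

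**Figure D5:**
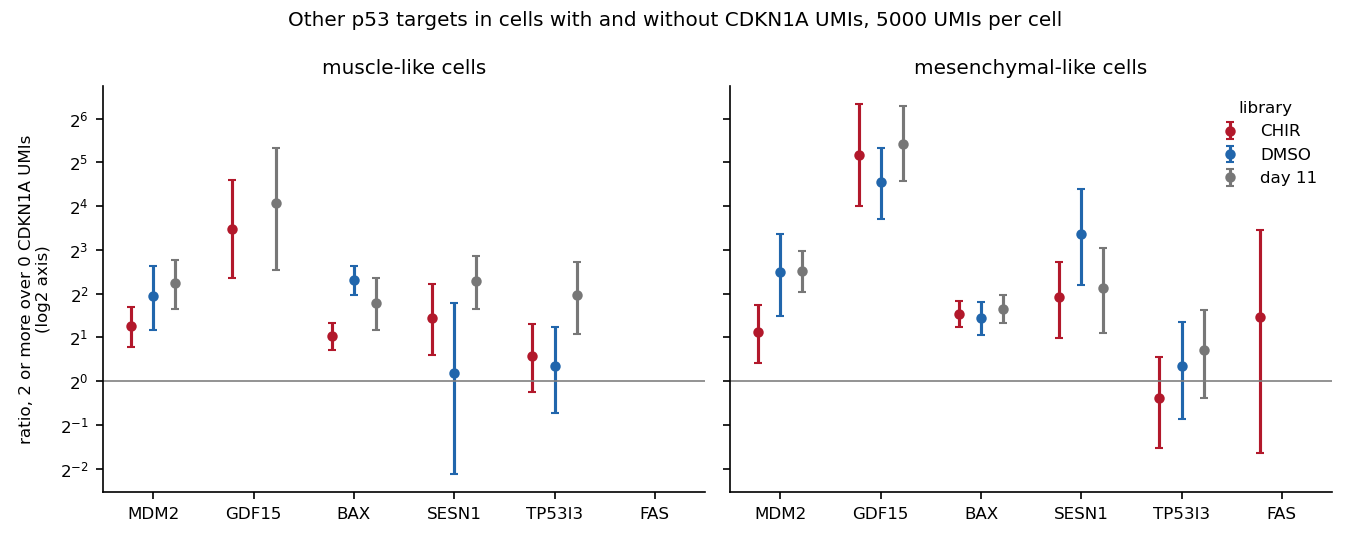
Ratio of each of the other 6 genes between cells with at least 2 and cells with 0 CDKN1A UMIs (log2 axis) in muscle-like and mesenchymal-like cells of the CHIR, DMSO and day 11 libraries, all thinned to 5000 UMIs. Points are ratios and bars exact 95% intervals, and genes with under 20 UMIs in a group, or none in the cells with CDKN1A UMIs, are not drawn. MDM2 and BAX lie above 1 in all 6 groups, whereas the bars of TP53I3 cross 1 in 5 of them.

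The wider pathway showed the same pattern in these cells. Of 34 other p53 targets on a list of textbook targets, the numbers at least 1.5-fold higher in muscle-like cells with CDKN1A UMIs were 22 of 29 measured with CHIR, 24 of 29 with DMSO and 27 of 30 at day 11. The share of all genes that were higher was 11.3%, 22.3% and 31.2% in the same order. In mesenchymal-like cells they were 24 of 30, 20 of 28 and 23 of 30, where 21.6%, 26.3% and 20.3% of all genes were higher. Between 0 and 3 of these targets were lower in any group.

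Of 9981 genes measured in all 6 library and class groups, 11 (0.11%) were at least 2-fold higher in every one. MDM2 and BAX were among them, and 8 of the other 9 were on the list of p53 targets: ZMAT3, TIGAR, BBC3, RRM2B, PLK3, RPS27L, DDB2 and FDXR. Of the listed targets, 26 were measured in all 6 groups, so most of them did not reach 2-fold in every one. Of the genes described here other than CDKN1A, 4 were measured in all 6 groups. The remaining gene of the 11 was PURPL, a long non-coding RNA, with ratios of at least 2.24. Its absence from the list does not mean that it is no p53 target. The 11 genes range from repair (DDB2, RRM2B) to metabolism (TIGAR, FDXR) and cell death (BBC3, also called PUMA).

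The cells with CDKN1A UMIs were somewhat deeper before thinning. Among muscle-like cells their median depth was 15006 UMIs, against 14820 in cells with 0 CDKN1A UMIs, with CHIR, 14679 against 13285 with DMSO and 15031 against 11739 at day 11. Their mitochondrial share was 6.03% against 5.25% with CHIR, 4.60% against 4.97% with DMSO and 3.19% against 3.19% at day 11. The part of these differences was not tested.

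The CHIR to DMSO ratios of the other genes in muscle-like cells were also taken without the cells that had at least 2 CDKN1A UMIs, which left 1389 and 1903 cells. CDKN1A itself chose the cells left out, so its own ratio in the rest is not read as a result. MDM2 had a ratio of 2.37 (2.12 to 2.66), BAX of 1.36 (1.28 to 1.45) and TP53I3 of 0.722 (0.642 to 0.812) in the remaining cells. Without the single highest cell of each library the ratio was 2.11 for CDKN1A and 2.47 for MDM2.

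MDM4, the partner of MDM2 in restraining p53, had 68.5 CPM with CHIR and 59.5 CPM with DMSO in muscle-like cells, a ratio of 1.15 (1.07 to 1.24), and a ratio of 1.22 (1.14 to 1.30) in mesenchymal-like cells.

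Of the 34 other p53 targets, 12 were higher and 4 were lower with CHIR among 33 measured in muscle-like cells, with a median log2 ratio of 0.32, beside 20.7% higher and 25.7% lower of all genes. In mesenchymal-like cells 6 were higher and 9 lower of 32, with a median of -0.05, beside 32.9% and 24.1% of all genes. In endothelial-like cells 7 were higher and 1 lower of 23, beside 27.8% and 25.8% of all genes, so that the number higher was near that share. In muscle-like cells the higher ones included SESN2, a second sestrin, with 25.9 CPM with CHIR against 7.50 CPM with DMSO, a ratio of 3.45 (2.94 to 4.07). The kinase gene PLK2 had a ratio of 2.07 (1.83 to 2.35), the RNA-binding ZMAT3 of 1.70 (1.55 to 1.85), the death receptor TNFRSF10B of 1.56 (1.40 to 1.74) and ASCC3 of 1.54 (1.38 to 1.71).

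Lower with CHIR in muscle-like cells were BBC3, a BH3-only death gene, with 9.78 CPM against 30.8 CPM with DMSO, 3.15-fold lower (2.72 to 3.66), the membrane protein gene PERP, 1.75-fold lower (1.62 to 1.88), and the repair gene DDB2, 1.58-fold lower (1.42 to 1.76). Known targets thus lay on both sides of the comparison, and BBC3 and DDB2, which were higher in cells with CDKN1A UMIs within each library, were lower in the CHIR library than in the DMSO library. Of 8 regulators of p53, 3 were higher in muscle-like cells and 0 were lower, beside the same 20.7% and 25.7% of all genes. They were CCNG1, cyclin G1 and itself a p53 target, with a ratio of 2.23 (2.10 to 2.36), TP53BP1 with 1.64 (1.5 to 1.79) and the deubiquitinase USP7 with 1.63 (1.48 to 1.80).

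Genes that respond to other stresses were set beside these because GDF15 and SESN2 are also targets of the integrated stress response, which acts through the factor ATF4. In muscle-like cells 5 of 8 such genes were higher with CHIR and 0 were lower, where 20.7% of all genes were higher and 25.7% lower. ATF4 had 168 CPM with CHIR, against 88.5 CPM with DMSO, a ratio of 1.90 (1.80 to 2.0), and CHAC1, which breaks down glutathione, had 23.2 CPM against 3.09 CPM, a ratio of 7.50 (5.94 to 9.58). DDIT3, which encodes CHOP, and TRIB3 had ratios of 0.95 (0.890 to 1.01) and 0.914 (0.678 to 1.23). In mesenchymal-like cells, where GDF15 was lower with CHIR, 1 of the 8 was higher (ATF4, 2.77, 2.65 to 2.89) and 4 were lower, where 32.9% of all genes were higher and 24.1% lower. Among the 4 were TRIB3, with a ratio of 0.283 (0.256 to 0.313), CHAC1, with 0.492 (0.445 to 0.545), and DDIT3, with 0.512 (0.490 to 0.535).

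CDKN1A was also set against the cell cycle, since p21 lowers the expression of genes that cells need to divide. Cycling cells, with at least 10 cycling marker UMIs per 10000, were 10.4% of muscle-like CHIR cells, 11.3% with DMSO and 4.71% at day 11. CDKN1A was 1.62-fold higher (1.35 to 1.93) in cycling than in other muscle-like cells with DMSO, and the ratio was 1.02 (0.860 to 1.20) with CHIR and 1.23 (0.855 to 1.71) at day 11. In mesenchymal-like cells the ratio was 1.09 (0.939 to 1.3) with CHIR, 1.05 (0.859 to 1.28) with DMSO and 0.805 (0.665 to 0.968) at day 11. With the cycling threshold 2 times higher the CHIR muscle-like ratio was 0.547, so that this comparison depends on where cycling is drawn. Of 17 genes known to be lowered by p21, 4 were higher and 7 lower with CHIR than with DMSO in muscle-like cells, where the number higher was near the 20.7% of all genes and 25.7% of all genes were lower. In mesenchymal-like cells 10 were higher and 0 lower, beside 32.9% and 24.1% of all genes.

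Across the 11 library and class groups with at least 50 cells, 6 of the 7 genes were compared in their pattern of levels, without FAS. Over their 15 pairs the Pearson correlation of log2(CPM + 1) lay between -0.39 and 0.83. It was 0.17 between CDKN1A and MDM2, 0.55 between CDKN1A and BAX, 0.75 between GDF15 and BAX and 0.83 between MDM2 and SESN1. Groups of 1 library share its depth and handling, so these values are descriptions only. Of 9620 genes compared, the ones most like CDKN1A were SNU13 (0.95), SCO2 (0.84), NTMT1 (0.83), SF3B5 (0.83) and INSIG1 (0.82), of which SCO2 was on the list of p53 targets. The ones most like MDM2 were FAM91A1 (0.96), NETO2 (0.95), SOCS4 (0.95), KIAA0100 (0.95) and WDR3 (0.95), and none of these was on the list.

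Some of the 7 genes overlap other genes in RefSeq, and the sources used here do not say whether the counting used strand. MDM2 overlaps the carboxypeptidase M gene, which had 3.20 CPM with CHIR, 9.58 CPM with DMSO and 9.49 CPM at day 11 in muscle-like cells, the opposite of MDM2 between the day 15 libraries. TP53I3 overlaps FAM228B, which had 16.9 CPM with CHIR, 22.5 CPM with DMSO and 45.6 CPM at day 11. SESN1 overlaps ARMC2, which had 0.843 CPM with CHIR, 0.980 CPM with DMSO and 13.9 CPM at day 11 and so was highest in the same library as SESN1. FAS overlaps ACTA2, and its levels are uncertain for this reason as well as for their few UMIs.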

How the data were processed

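Single-cell RNA was measured in 3 libraries (3′ tags with UMIs), 1 per group. Per the submitters' processing notes, Cell Ranger 6.1.1 and the build GRCh38 were used, with R 4.1.0 and Seurat 4.3.0 named in addition for day 11. The values that the authors deposited are raw UMI counts in whole numbers. The counting of intron reads and of strand is not given in these sources. The H3K27ac peak list of the series (hg19) was not used here.

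The 7 genes, the gene lists and the comparisons were chosen with earlier results of these data known. Marker genes of the classes were fixed first, and their thresholds were set after the marker distributions were seen: at least 80 muscle marker UMIs per 10000 with under 20 mesenchymal ones for muscle-like cells, under 40 muscle and at least 10 mesenchymal for mesenchymal-like cells, and under 40 muscle, at least 5 UMIs per 10000 and 4 different markers for endothelial-like and endoderm-like cells. Cells with muscle and mesenchymal markers, and cells in no class, were kept apart. Doublets were not removed, except in an alternative that left out the 6% of cells with the highest Scrublet scores.

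UMIs were summed by class and library, and CPM ratios have exact conditional binomial (Clopper-Pearson) 95% intervals. Log2 ratios had 0.5 added to each count. No p-values were computed. Genes named beside the 7 were MDM4, ATF4, DDIT3, CHAC1 and TRIB3, up to 15 genes of the p53 lists with at least 20 CPM and 1.5-fold in muscle-like cells, and for CDKN1A and MDM2 the 5 genes with the most similar levels. A further gene of this rule is not reported here. The genes shared by all groups of cells with CDKN1A UMIs, and the genes that overlap the 7, were named after their values were seen. Computations used Python 3.11.15, NumPy 2.4.6, SciPy 1.17.1, scanpy 1.11.5 and matplotlib 3.10.9, with TMM factors from edgeR 4.0.16, and were tested on simulated data. Promoter sequences and coordinates are from RefSeq, GRCh38.p14.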

Additional observations from a re-analysis of the deposited data

Results flagged for a closer look

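GDF15 differed in direction between cell classes under the same contrast. Its CHIR to DMSO ratio was 21.1 in endothelial-like cells and 0.216 in mesenchymal-like cells, and with 1 library per group the difference between these ratios was not tested. Without the 2 cells of each library with most GDF15 UMIs the endothelial-like ratio was 7.90, so that its size, but not its direction, rested on them. The mesenchymal-like ratio without the highest cell of each library was 0.220.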

How the results depend on the processing

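Over 650 recomputed values, 537 moved by less than their counting interval or, for counts, by at most 1.5-fold. Another 111 moved further and 2 reversed. The number of the 7 genes higher with CHIR than with DMSO in muscle-like cells, 3 in the main run, changed by such small steps. It was 4 without mitochondrial and ribosomal protein genes in the total, with marker thresholds 2 times lower and at the lower alternative fold. It was 2 at a fold of 2. Other count changes of at most 1.5-fold are not listed. The CHIR to DMSO ratios of CDKN1A and MDM2 in muscle-like cells stayed at 1.5-fold or more in every alternative run, with log2 ratios of at least 1.06 and 1.19. Leaving mitochondrial and ribosomal protein genes out of the total moved the median log2 ratio of all genes from -0.02 to 0.18 in muscle-like and from 0.15 to 0.33 in mesenchymal-like cells, and the number of genes higher with CHIR to 2 in mesenchymal-like, endoderm-like and all cells. For the other changed counts the cause was not tested. In mesenchymal-like cells the number higher was 2 with marker thresholds 2 times higher, and the number lower was 2 with CPM averaged over cells, with TMM factors, without the highest doublet scores, with marker thresholds 2 times lower and without cycling cells, where BAX passed the threshold it had just missed. In all cells the number higher was 2 with CPM averaged over cells and with TMM factors. In endoderm-like cells it was 0 without cycling cells and 4 with no minimum of UMIs. For DMSO over day 11 it was 5 with TMM factors, with 1 lower. At the lower of the alternative folds the number lower was 1 in muscle-like and 2 in mesenchymal-like and endothelial-like cells, and the number higher was 2 in mesenchymal-like and endoderm-like, 4 in all cells and 5 for DMSO over day 11. At a fold of 2 the number lower was 0 in endothelial-like cells and the number higher for DMSO over day 11 was 1.

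With the cycling threshold 2 times higher, CDKN1A in cycling over other cells was 0.547 in CHIR muscle-like and 0.807, 0.695 and 0.572 in CHIR, DMSO and day 11 mesenchymal-like cells. Without thinning, muscle-like shares with a UMI were 35.7% (CHIR), 17.4% (DMSO) and 8.18% (day 11) for CDKN1A and 46.8%, 21.9% and 36.7% for MDM2. Chosen after seeing the data were the alternatives on cells with CDKN1A UMIs and on single highest cells. When cells were thinned to 3000 UMIs, the ratios between CHIR muscle-like cells with and without CDKN1A UMIs reversed to 0 for SESN1 and 0.283 for TP53I3, from few UMIs. No paired analysis was possible because each single-cell group has 1 library, and the chromatin samples that share replicate numbers gave no values for these genes. The number of UMIs limits FAS in every class and all genes in endothelial-like and endoderm-like cells.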

Other observations

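One day 11 cell that fell in no class held 627 of the 2382 CDKN1A UMIs of its library, 26.3%, and the next highest cell had 45. It had 19455 UMIs in all, of which 0.123% were mitochondrial, and CDKN1A was its 4th most abundant gene. The same cell had 74 GDF15, 18 MDM2 and 1 BAX UMIs, and 0 of SESN1, TP53I3 and FAS. Without it the day 11 level of CDKN1A over all cells was 23.1 CPM, against 31.4 CPM with it, and over unclassed cells 31 CPM, against 140 CPM. With CHIR, 1 unclassed cell held 69 of the 91 GDF15 UMIs of that class.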
